A study of Mus musculus with 6 samples.

Results

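Gm23935, Gm24270, Gm24187, Gm25911, Gm24245 and Gm23388 are 6 predicted mouse genes of biotype miRNA in GENCODE M21. Each is 56 or 57 bases long, and all 6 are near-identical in sequence. They were chosen by biotype, length and sequence, and were singled out because they held most of the counts on miRNA-annotated genes, so that their abundance is given as a description with no test. They are 6 of the 2207 miRNA-annotated genes and of the 47729 genes in the count files. Of the 2207 miRNA-annotated genes, 64 had at least 1 count and 11 had a count in every sample, and all 6 members were among these 11.

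The RNA came from extracellular vesicles (EVs) of WEHI-231, a mouse B lymphoma cell line. The cells were stimulated for 1 h with isotype control antibody or with anti-CD24 antibody, in both cases at 10 µg/mL and pre-incubated with a secondary antibody at 5 µg/mL, with 3 biological replicates of each condition, and the EVs were captured with Vn96, a synthetic peptide that binds heat shock proteins. CD24 is a glycosylphosphatidylinositol-anchored surface protein of developing B cells. The IonTorrent PGM libraries were prepared without RNA fragmentation or rRNA depletion. Each replicate number stood for 1 sequencing run, which held an isotype and an anti-CD24 library. Barcode 1 was used for isotype and barcode 2 for anti-CD24 throughout, so that barcode and condition cannot be told apart.

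A miRNA is transcribed as part of a hairpin, which Drosha and its partner Dgcr8 excise from the primary transcript and Dicer1 trims to a short duplex. A mature strand is then held by an Argonaute protein and pairs with target mRNAs through its seed, the bases close to its 5′ end. EVs are known to carry small RNA of many classes, miRNA among them. A Gm symbol denotes a gene model that was predicted and has not received a name of its own. None of the 6 genes had an entry in the RefSeq miRNA table used here, and therefore no mature strand or seed is given for them.

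The 6 genes have only 4 distinct sequences, which are printed here because their identity limits what a count on any one of them can show. They are the annotated sense strand from GENCODE M21 (GRCm38), 5′ to 3′, and capitals mark the 7 of 57 aligned positions at which any member differs from another.
Gm23935, Gm24270 and Gm24245: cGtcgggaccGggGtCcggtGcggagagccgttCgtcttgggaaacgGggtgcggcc
Gm24187: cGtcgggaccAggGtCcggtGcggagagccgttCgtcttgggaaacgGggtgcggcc
Gm25911: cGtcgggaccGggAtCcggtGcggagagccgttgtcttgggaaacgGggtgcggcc
Gm23388: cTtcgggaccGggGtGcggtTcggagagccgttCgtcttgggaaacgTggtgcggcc

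Gm23935, Gm24270 and Gm24245 were identical over all 57 bases. With positions counted from 1 at the 5′ end of Gm23935, Gm24187 carried the single substitution G11A. Gm25911 carried G14A and lacked the base at position 34. Gm23388 was the most divergent member, with G2T, C16G, G21T and G48T. Identity between pairs of members ran from 89.5 to 100%, with a median of 96.5%, and 50 of the 57 positions were the same in all 6. A read that did not cover a variable position could not be assigned to one member by its sequence.

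The members were rich in G and C. Their GC content was 68.4 to 73.7%, against a median of 50.7% for the 2196 other miRNA-annotated genes with a sequence, of which 2.19% exceeded the highest member. They held 8 or 9 CpG dinucleotides each, against a median of 1. They were also short, at 56 to 57 bases against a median of 89.5. Their predicted folding energy was −22.5 kcal/mol for the identical trio, −19.8 for Gm24187, −23.2 for Gm25911 and −19.9 for Gm23388. Per base, this was −0.414 to −0.347 kcal/mol, and the median of the other miRNA-annotated genes, −0.369, lay within that range. Length and sequence were part of how the members were chosen, so that these features are a description.

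No gene outside the family matched a member over at least 30 bases at 90% identity or more among 141767 annotated transcripts. The longest match that fell outside this limit was 26 bases at 84.6% identity, in Gm10472. The longest exact run shared with a transcript of another gene was 17 bases, in Actr5 on the opposite strand, and the longest shared with any of 2743 RefSeq miRNA entries was 12 bases. Sequences that are not among these transcripts, the 45S precursor of ribosomal RNA included, were not compared here. Whether reads on the members came from that precursor was therefore not tested. The labels miRNA and rRNA used below are those of the annotation.

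The genes are spread over 6 chromosomes. In GRCm38, Gm23935 (ENSMUSG00000076258) lies at chr16:11144125-11144181 on the plus strand, within an intron of Zc3h7a, which is on the opposite strand. Gm24270 (ENSMUSG00000076281) lies at chr9:56223715-56223771 on the minus strand, within an intron of Peak1 and in its direction. Gm23388 (ENSMUSG00000089213) lies at chr8:85112012-85112068 on the minus strand, within an intron of Zfp791 and in its direction. Zc3h7a and Zfp791 had 0 counts in all 6 samples, and Peak1 had 0 to 6 counts, far below the counts on Gm23935 and Gm24270, which began at 540. Gm24187 (ENSMUSG00000088609, chr13:9834469-9834525, minus strand) and Gm25911 (ENSMUSG00000088246, chr1:167340369-167340424, minus strand) overlap no annotated gene. Gm24245 (ENSMUSG00000087943, chr4:139338304-139338360, plus strand) overlaps none either, but lies 39 bases from Gm25732, another miRNA-annotated gene on the same strand.

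The authors deposited raw counts per gene from htseq-count, with 166129 to 794185 gene counts in a sample. Values are given here as counts per 1000000 gene counts of the sample (CPM) unless a count is stated. Alignment used the tmap option that writes every equally good position of a read, and no file lists a read as aligned to more than one place, so that 1 read may have been counted on several members. Whether it was cannot be told from the files. Sums over members are therefore sums of counts and not numbers of molecules, and intervals from counts cover counting error only. Haemoglobin transcripts, markers of erythroid cells, had 99 counts in all, and all 99 were in anti-CD24 replicate 1, where they made up 162 CPM. The levels, calls and shares of the members are given with and without that sample, and the correlations and the ratios to reference transcripts with it. The labelled B cell origin rested on few counts. The B cell markers summed to 68 counts, between 0 in isotype replicate 2 and 24 in the highest sample. None of the 6 T cell markers had a count, and 3 of 7 myeloid markers summed to 8.

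Gm23935, Gm24270 and Gm24187 were the 3 most abundant miRNA-annotated genes, with 15492, 15134 and 14443 counts over the 6 samples. Per base of gene, this was 272, 266 and 253 counts. Gm25911 followed at 66.2 counts per base and Gm24245 at 62.0, close to Mir6236, the most abundant miRNA-annotated gene outside the family, at 57.9. Gm23388, the most divergent in sequence, had 0.316 counts per base, from 18 counts in all. On total counts it stood 12th in the biotype, between n-TSaga9 with 26 counts and Gm27509 with 15.

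The order within samples was firm between the tiers and loose within them. Gm23935 exceeded Gm24270 in 6 of 6 samples, but by little, as Gm24270 had 90.6 to 99.7% of the counts of Gm23935. Gm24187 had 77.0 to 108% of the counts of Gm23935 and was above Gm24270 in 1 sample, isotype replicate 3. Gm25911 had 20.7 to 28.5%, far below these 3 in every sample. Gm24245 had 12.1 to 54.0%, a range that contains that of Gm25911, and it was the higher of the pair in both libraries of replicate 1 and the lower in the other 4. Gm23388 had no more than 0.357% of the counts of Gm23935.

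**Figure D1:**
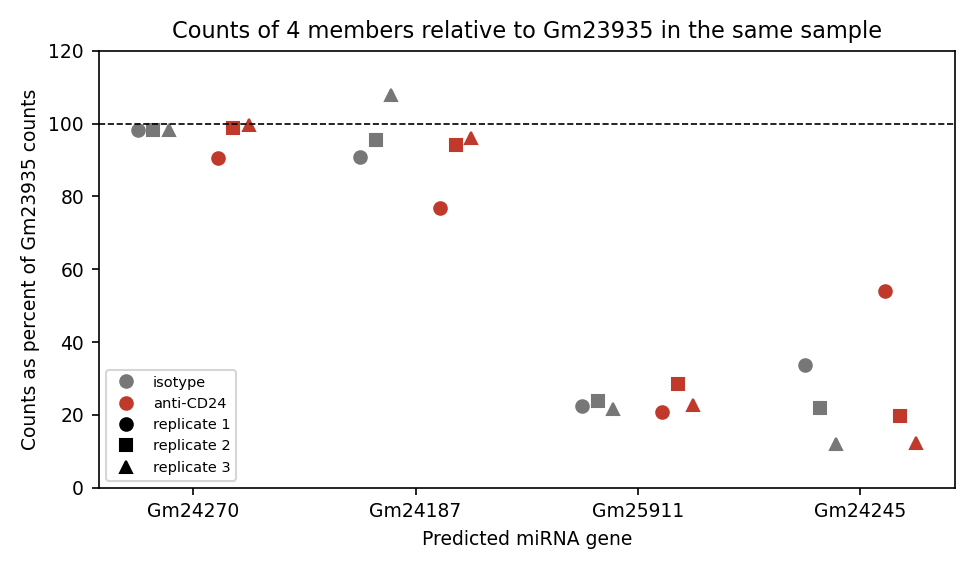
Counts of Gm24270, Gm24187, Gm25911 and Gm24245 as a percent of the counts of Gm23935 in the same sample, with isotype samples in grey, anti-CD24 samples in red and the symbol giving the replicate. Gm24270 stays at 90.6 to 99.7%, while Gm24245, which has the same sequence as both, ranges from 12.1 to 54.0%.

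The identical trio did not share its counts equally. Gm24270 had a median of 98.3% of the counts of Gm23935, whereas Gm24245 had a median of 20.9%. Gm24187 and Gm25911, which differ from Gm23935 in sequence, had medians of 94.8 and 22.6%. Gm24187, with 1 substitution, was therefore nearer to Gm23935 in counts than Gm24245, with none. Gm24245 fell short of Gm23935 by 428 to 5063 counts per sample. This was less than the 2743 to 21834 reads that each file lists as ambiguous between genes, which were 1.16 to 3.45% of the reads on genes or between them. The part that ambiguous reads or the nearby Gm25732, with 1 count in all, had in this shortfall was not tested.

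Gm23935 was measured at 3024, 3305 and 1868 CPM in isotype replicates 1, 2 and 3, and at 4133, 5767 and 7268 CPM in anti-CD24 replicates 1, 2 and 3. The lowest anti-CD24 sample stood above the highest isotype sample. The group means were 2732 ± 761 CPM for isotype and 5722 ± 1568 CPM for anti-CD24 (SD, n = 3 each), a ratio of 2.09. Within runs 1, 2 and 3, anti-CD24 was 1.37-fold, 1.75-fold and 3.89-fold of isotype.

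Gm24270 was measured at 2971, 3250 and 1834 CPM in the isotype replicates and at 3744, 5696 and 7246 CPM in the anti-CD24 replicates, in the same order of replicates. As for Gm23935, isotype replicate 3 was the lowest sample and anti-CD24 replicate 3 the highest. Gm24187 was measured at 2748, 3154 and 2015 CPM in the isotype replicates and at 3180, 5434 and 6990 CPM in the anti-CD24 replicates. Its groups were separated only by the gap between 3154 and 3180 CPM, which is smaller than the counting error of either value. The means of Gm24270 were 2685 ± 750 and 5562 ± 1755 CPM, and those of Gm24187 were 2639 ± 577 and 5201 ± 1915 CPM (SD, n = 3 each).

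Gm25911 was measured at 679, 789 and 405 CPM in the isotype replicates and at 857, 1644 and 1653 CPM in the anti-CD24 replicates. Its groups did not overlap, and its means were 624 ± 198 and 1385 ± 457 CPM (SD, n = 3 each). Its ratios within runs 1, 2 and 3 were 1.26, 2.09 and 4.09, so that run 3 held the largest difference for this member too.

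Gm24245 was measured at 1024, 728 and 227 CPM in the isotype replicates and at 2233, 1137 and 893 CPM in the anti-CD24 replicates. Its groups overlapped, as anti-CD24 replicate 3 was below isotype replicate 1. It was nevertheless higher after anti-CD24 in each run, with ratios of 2.18, 1.56 and 3.94. Unlike the members above, its highest sample was anti-CD24 replicate 1, and in both groups run 1 held its highest and run 3 its lowest sample.

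Gm23388 had 1 count in each isotype sample and 9, 3 and 3 counts in anti-CD24 replicates 1, 2 and 3. Pooled within a condition, this was 3 against 15 counts, a ratio per gene count of 2.92 with an exact 95% interval of 0.827 to 15.8 for counting error. In CPM its groups overlapped, at 3.48 ± 2.38 and 7.53 ± 6.25 (SD, n = 3 each), and a difference was not detectable at this depth.

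**Figure D2:**
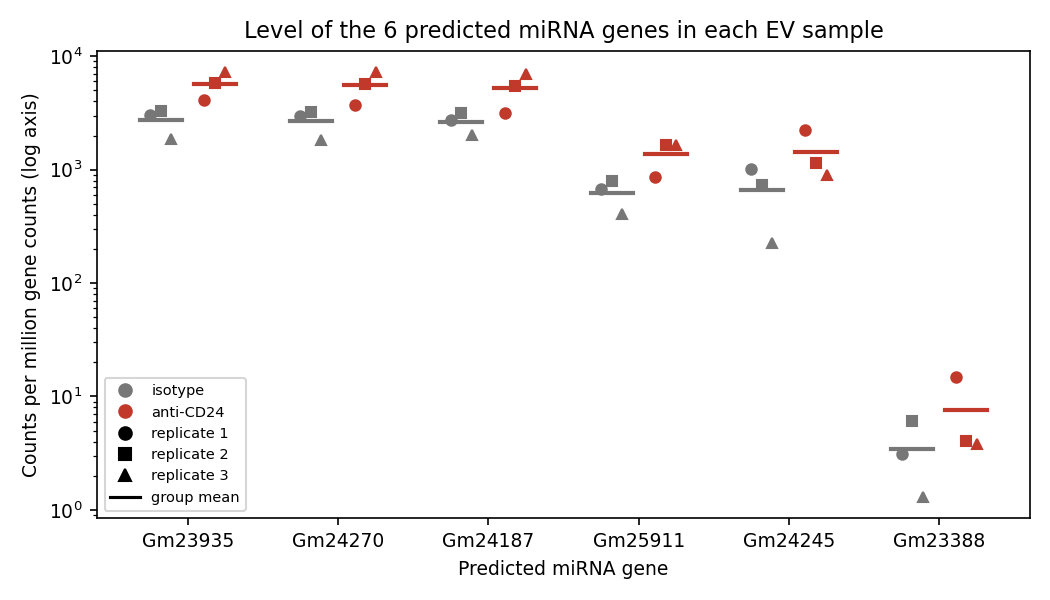
Level of each member in CPM, on a log axis, with isotype in grey, anti-CD24 in red, the symbol giving the replicate and the horizontal bar the group mean. The groups do not overlap for Gm23935, Gm24270, Gm24187 and Gm25911 and overlap for Gm24245 and Gm23388.

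Across the family, every anti-CD24 sample was above every isotype sample for 4 of 6 members, against 5.73% of the 1501 genes tested. Anti-CD24 was the higher library in all 3 runs for 5 of 6 members, against 9.86% of the genes tested. The exception was Gm23388, which was higher in 2 of 3 runs. Without anti-CD24 replicate 1 and without run 1, these counts were 4 of 6 against 9.86% of genes and 5 of 6 against 18.9%. The genes tested were mostly of low count, as 134 of the 1501 had at least 10 counts in every sample, compared with 5 of 6 members. Shares among those 134 genes were not computed, so that the percentages are not matched to the members in level. Without anti-CD24 replicate 1, the ratio of mean CPM was 2.39 for Gm23935, 2.41 for Gm24270, 2.35 for Gm24187, 2.64 for Gm25911, 1.54 for Gm24245 and 1.13 for Gm23388 (n = 3 isotype and 2 anti-CD24). As the members share most of their bases and may share reads, they are not separate replicates of this difference. CPM is set against all gene counts, so that these separations also move with the level of the rRNA gene n-R5-8s1, given below. In bulk libraries, a different share of EVs that carry a transcript and a different number of copies per EV cannot be told apart.

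In edgeR's quasi-likelihood test with Benjamini-Hochberg adjustment over all 1501 genes, 0 of 6 members passed an adjusted p of 0.05. DESeq2 and edgeR's exact test also called 0 members. At an unadjusted p of 0.05, 4 members passed, namely Gm23935, Gm24270, Gm24187 and Gm25911, against 7.93% of all genes, and at the adjusted threshold 0.0666% of all genes passed, which was the single gene Zfp260. The fit with the replicate number as a block, which pairs the libraries of a run, called 0 genes, as did DESeq2. In the quasi-likelihood fit without a block, the log2 fold changes were 1.64 ± 0.75 (SE) for Gm25911, 1.59 ± 0.75 for Gm23935, 1.59 ± 0.75 for Gm24270 and 1.52 ± 0.75 for Gm24187. They were 1.42 ± 0.74 for Gm24245 and 1.50 ± 1.48 for Gm23388. The adjusted p was 0.55 for all members but Gm23388, for which it was 0.68. The 95% interval of Gm23935, from 0.12 to 3.06 on the log2 scale, shows how wide the error of the fit was. Each SE was derived from the log2 fold change and the F statistic of the test, and the interval from that SE. The median over the members was 1.55, whereas the median over all genes tested was −0.29.

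The fitted values are larger than the ratios of CPM where TMM scaled the libraries, with a factor of 0.512 for anti-CD24 replicate 3 and 0.873 to 1.37 for the others. Scaled by library size alone, the members' log2 fold changes ran from 0.97 to 1.30. Under RLE size factors, the members' log2 fold changes ran from 0.84 to 0.99 and the median of all genes moved to −0.88. Relative to the median of all genes in the same fit, the members stood 1.71 to 1.93 higher under TMM, 1.72 to 1.87 under RLE and 1.33 to 1.65 under library size alone. With at least 10 counts required in every sample, which left 134 genes and 5 members, they stood 0.21 to 0.77 higher. The direction was thus the same under each of these settings, and the size was not.

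The calls depended on anti-CD24 replicate 1, the sample with the haemoglobin counts. Without it, 4 of 6 members were called by the same edgeR test with Benjamini-Hochberg adjustment, each at an adjusted p of 0.0061, with log2 fold changes of 2.01 for Gm23935, 2.02 for Gm24270, 1.97 for Gm24187 and 2.13 for Gm25911. Gm24245 and Gm23388 were not called, at adjusted p of 0.22 and 0.83. In that fit 47 of 1119 genes passed, or 4.20%, and 46 of these were higher after anti-CD24. Leaving out any other single sample gave no called member, with adjusted p of 0.476 or more. The size of the difference also rested on both libraries of run 3. Without isotype replicate 3 all 6 members were lower, at log2 fold changes of 0.72 to 1.06. Without anti-CD24 replicate 3, Gm23935, Gm24270, Gm24187 and Gm25911 were at 0.59 to 0.88, whereas Gm24245 was at 1.32 and Gm23388 at 1.66. The part of the haemoglobin-bearing material, of the run or of the library in these differences was not tested.

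The 7 other miRNA-annotated genes that entered the fit gave 0 calls in edgeR's quasi-likelihood test, 1 gene at an unadjusted p of 0.05, and a median log2 fold change of 1.16. All 7 values were above 0, as were all 6 of the members, against 671 of the 1501 genes tested. Mir6236 had the largest at 1.89 ± 0.75 (SE, adjusted p = 0.49), and Mir5099 stood at 1.16 ± 0.96 (adjusted p = 0.63). Snord43, which GENCODE M21 lists under the miRNA biotype despite its snoRNA name, stood at 1.41 ± 0.94 (adjusted p = 0.55). Gm44456 and n-TStga1 had the same counts in every sample and stood at 0.34 ± 0.97 (adjusted p = 0.88). The groups overlapped for all 7, which is a count of 0 of 7 against 5.73% of all genes. Mir6236, Snord43 and Mir5099, 3 of the 7, were higher after anti-CD24 in all 3 runs, against 9.86% of all genes. The fit did not test a difference between the members and these genes.

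**Figure D3:**
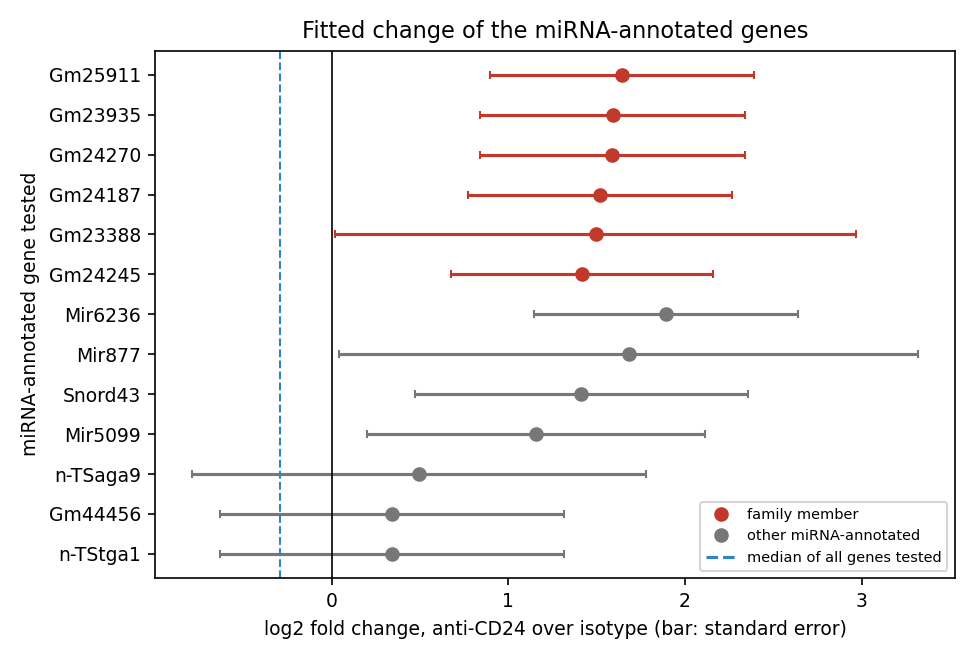
Fitted log2 fold change of anti-CD24 over isotype for the 13 miRNA-annotated genes tested, with standard errors derived from the F statistic, family members in red and other genes in grey, and the median of all genes tested as a dashed line. The members lie between 1.42 and 1.64 with overlapping errors, and none of the 13 genes passed the adjusted threshold.

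The summed counts of the family were 3369, 1866 and 4850 in isotype replicates 1, 2 and 3 and 8643, 14495 and 19103 in anti-CD24 replicates 1, 2 and 3. As a share of all gene counts, they were 1.04, 1.12 and 0.635% after isotype and 1.42, 1.97 and 2.41% after anti-CD24. The means were 0.934 ± 0.262% and 1.93 ± 0.496% (SD, n = 3 each), a difference of 0.996 percentage points with no overlap between the groups. The differences within runs 1, 2 and 3 were 0.371, 0.845 and 1.77 points, and without anti-CD24 replicate 1 the difference in means was 1.25 points. Where only the highest member was counted, the means were 0.280 ± 0.0688% and 0.580 ± 0.161%, again with no overlap. In runs 1, 2 and 3, n-R5-8s1, an rRNA gene, had 227619 of 322397, 124680 of 166129 and 577062 of 763737 gene counts after isotype. After anti-CD24 it had 446714 of 610285, 328966 of 736432 and 418226 of 794185. The family's share with this gene taken out of the total was not computed. Whether the groups stay apart, or each run keeps its direction, without it was therefore not tested.

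The picture depended on the total against which the family was set. Outside the rRNA and ribozyme genes, the family held 10.4 ± 2.89% of counts after isotype and 16.6 ± 5.95% after anti-CD24 (SD, n = 3 each). This split followed the annotation, in which the members are miRNA genes. The total kept mt-Rnr2 and Gm42418, whose biotypes are neither rRNA nor ribozyme. mt-Rnr2, the mitochondrial 16S rRNA, had 13585 of the 68947 non-rRNA counts in isotype replicate 3 and 7455 of 81426 in anti-CD24 replicate 3. Gm42418, chosen here as a reference of the rRNA locus, had 21497 and 30103 in the same samples. Whether the members' own counts came from ribosomal RNA was not tested, as its precursor was not compared with them. The groups did not overlap, but the differences within runs 1 and 2 were 1.25 and 0.995 points, compared with 16.4 points in run 3. Without anti-CD24 replicate 1 the difference in means was 7.83 points. With mitochondrial genes also left out, the shares were 15.8 ± 4.83% and 23.9 ± 7.69%, the groups overlapped, and run 1 went the other way by −0.790 points. Most of the difference outside the genes annotated as rRNA or ribozyme was therefore in run 3.

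Of the miRNA-annotated counts, the family held 89.6 ± 2.40% after isotype and 84.4 ± 12.9% after anti-CD24 (SD, n = 3 each), with overlapping groups. The anti-CD24 samples were spread widely, at 70.4, 87.0 and 95.7% in replicates 1, 2 and 3. The lowest of these was the sample in which Mir6236 reached 3550 counts, against 115 to 1746 in the other 5. Within runs 1 and 2 the share was lower after anti-CD24, by −17.5 and −5.29 points, and within run 3 it was higher by 7.14. The difference in means was −5.23 points with all samples and 1.77 without anti-CD24 replicate 1. The other miRNA-annotated genes together stood at 1065 ± 328 CPM after isotype and 3329 ± 2462 CPM after anti-CD24 (SD, n = 3 each), with overlapping groups.

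**Figure D4:**
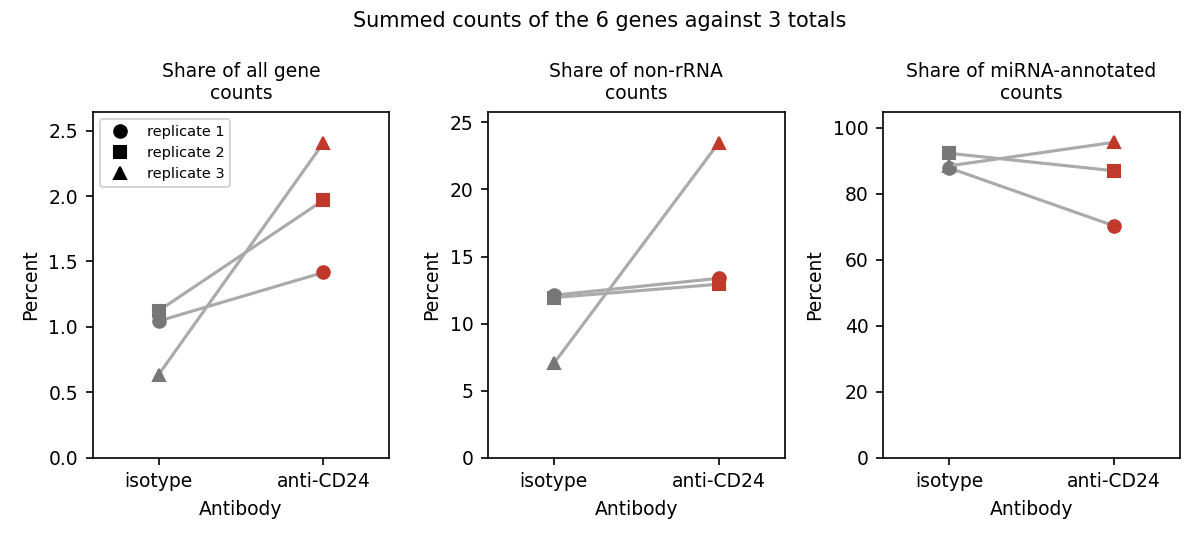
Summed counts of the 6 genes as a percent of all gene counts, of non-rRNA counts and of miRNA-annotated counts. Lines join the isotype and anti-CD24 libraries of a replicate number. Non-rRNA counts are those outside the rRNA and ribozyme biotypes, and they include mt-Rnr2 and Gm42418. All lines rise in the left panel, those of replicates 1 and 2 are nearly flat in the middle panel, and the direction is mixed in the right panel.

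The groups overlapped in the share of the family held by each member. Gm23935 made up 29.3% of the family's counts after isotype and 29.6% after anti-CD24, Gm24270 28.8 and 28.5%, Gm24187 28.7 and 26.4%, and Gm25911 6.63 and 7.09%. Gm24245 made up 6.62 ± 3.12% and 8.42 ± 6.45%, and Gm23388 0.0346 and 0.0468%. An exact two-sided permutation test of 3 against 3 samples gave p from 0.5 to 1 over the 6 members, with adjusted p of 1 for each. This design cannot give a p below 0.1, so that the test could not have called a difference at 0.05. Gm24187 held a smaller share after anti-CD24 in all 3 runs, by −3.84, −0.472 and −2.67 points in runs 1, 2 and 3. Each of the other members was higher in some runs and lower in others, and the largest of these differences in points was that of Gm24245 in run 1, at 5.97. Without anti-CD24 replicate 1, the difference in group means changed sign for Gm24270, to 0.780 points, for Gm24245, to −1.87, and for Gm23388, to −0.0164.

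The share of Gm24245 differed between runs in both conditions. It made up 9.80 and 15.8% of the family in the isotype and anti-CD24 libraries of run 1, 6.48 and 5.77% in those of run 2, and 3.57 and 3.71% in those of run 3. The share of Gm24187 was lowest in run 1 in both groups, at 26.3 and 22.5%, and highest in run 3, at 31.7 and 29.1%. Gm23935 stayed within 28.9 to 30.2% in all 6 samples. The part of the run in these shares was not tested.

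**Figure D5:**
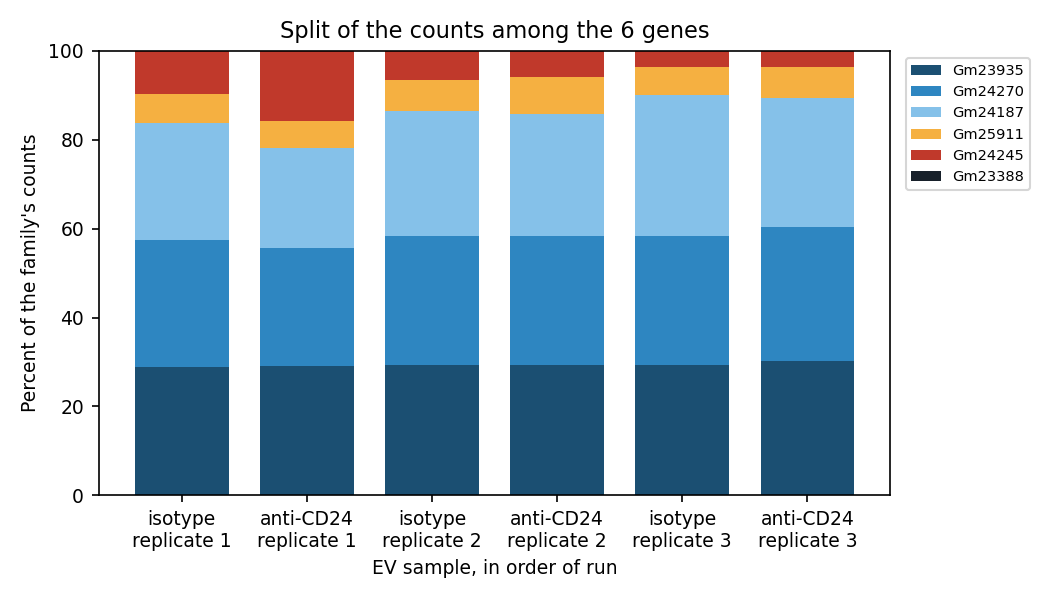
Percent of the family's counts on each member in each EV sample, ordered by run. Gm23935 fills 28.9 to 30.2% of every bar, while Gm24245 takes 9.80 and 15.8% in run 1 and 3.57 and 3.71% in run 3; Gm23388 is too small to be seen.

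The members fell into groups by how they varied over the 6 samples. On log2 CPM with a pseudocount of 1, Gm23935, Gm24270, Gm24187 and Gm25911 correlated with each other at Pearson r of 0.974 to 0.997. Gm24245 correlated with these 4 at 0.446 to 0.631, although its sequence is that of Gm23935 and Gm24270. Gm23388 correlated with them at 0.200 to 0.397 and with Gm24245 at 0.852, both of which were highest in anti-CD24 replicate 1. With 1 count in each isotype sample and 9, 3 and 3 counts in the anti-CD24 samples, Gm23388 gave coefficients that rest on very few counts. All coefficients among the members describe 6 samples that share runs and a common total, and the members share sequence.

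Outside the family, the genes whose level was most like the family sum over the 6 samples were sought among 133 genes with a mean count of at least 50. Gm24312, a gene of biotype rRNA, came first at r = 0.93. It was followed by n-R5s106, n-R5s118 and n-R5s130, 5S rRNA genes with the same counts as each other, at r = 0.90, and by mt-Tf, the mitochondrial tRNA of phenylalanine, at r = 0.89. Ranking by Spearman in place of Pearson kept 1 of these 5 genes, Gm24312, so that the rest of the list depends on the measure.

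Set against abundant references in the same sample, the family was higher after anti-CD24 in some cases only. Of these references, n-R5-8s1, Gm42418, Gm26917 and Lars2 were chosen as genes of the rRNA locus, and not as transcripts apart from rRNA. Whether counts on Gm42418, Gm26917 and Lars2 came from ribosomal RNA was not tested. Per 1000 counts of n-R5-8s1, the 5.8S rRNA gene that took most counts, there were 14.8, 15.0 and 8.40 family counts in isotype replicates 1, 2 and 3 and 19.3, 44.1 and 45.7 in anti-CD24 replicates 1, 2 and 3, with no overlap between groups. This reference was itself lower on average after anti-CD24, at 737366 ± 27264 CPM for isotype and 568430 ± 147163 CPM for anti-CD24 (SD, n = 3 each). The ratio to it therefore also moves with the reference. The part of this lower level in the members' CPM and in their share of all gene counts was not tested. Per 1000 counts of Gm42418, a long non-coding RNA gene, there were 683, 564 and 226 after isotype and 994, 889 and 635 after anti-CD24, and the groups overlapped. Against both references the ratio was higher after anti-CD24 in all 3 runs. Against Gm26917 and Lars2 it was higher in 2 of 3 runs, and lower in run 1, where the anti-CD24 library had 0.352-fold and 0.736-fold the isotype ratio. Against mt-Rnr2, the mitochondrial 16S rRNA, it was 1.12-fold, 1.04-fold and 7.18-fold in runs 1, 2 and 3.

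Transcripts of the cell's miRNA machinery gave little to set beside the family. Of 12 genes of miRNA processing and loading, 10 had a count, and they summed to 35 counts over the 6 samples. Only 2 entered the fit and 0 were called by edgeR's quasi-likelihood test with Benjamini-Hochberg adjustment. Dicer1, the cytoplasmic enzyme that cuts the hairpin, had 9 counts and a log2 fold change of −2.28 (adjusted p = 0.56). Tarbp2, its double-stranded RNA-binding partner, had 7 counts and a log2 fold change of −1.87 (adjusted p = 0.60). Ago2, the Argonaute with slicing activity, had 0 counts in all 6 samples.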

How the data were processed

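EV RNA was sequenced from 3 isotype and 3 anti-CD24 samples, grouped by the condition in their labels. Per the study's methods, reads were quality-trimmed (FASTX) and mapped by tmap, and the authors deposited raw counts per gene from htseq-count (HTSeq 0.5.4p5 in the submitters' processing notes) in union mode, by strand, on exons of GRCm38 genes, without normalization. The 5 summary lines of each file were left out. Gene counts were 166129 to 794185 in a sample, of which 3 counts were 0.000378 to 0.00181%. Symbols, biotypes, positions and sequences came from GENCODE M21, in which 419 of 47729 genes were not found.

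Genes with 1.0 CPM or more in at least 3 samples entered the quasi-likelihood test of edgeR 4.0.16 (R 4.3.3) after TMM scaling, with condition as the only factor and Benjamini-Hochberg adjustment at 0.05. The script was first run on simulated data in which 200 genes changed 16-fold. Those changes are far larger than the members', so that the run does not show the power to call the members. All 6 members had more than 1.0 CPM in every sample. Alternatives were DESeq2 1.42.0, the exact test, other scalings and filters, rRNA genes removed, the family as 1 row, the replicate number as a block and each sample left out. Run names tie equal replicate numbers to a run. Deviations from the group means correlated at −0.030, −0.024 and −0.106 for equal numbers and at −0.083 to 0.125 for unequal ones. BLAST+ 2.17.0 and ViennaRNA 2.7.2 were used for matches and folds, and scipy 1.17.1 for exact tests.

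The members and marker lists were chosen with earlier results of these data known. The text names the members, the 5 most abundant other miRNA-annotated genes, those next to the lowest member in total count, genes matching a member, 5 reference transcripts, the 5 genes most like the family sum and any gene called. Actr5, Gm10472, Gm25732, the host genes, and the marker and miRNA-processing genes named were given for their position, match or list and not by this rule. The value of 1 marker gene is not reported here.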

Additional observations from a re-analysis of the deposited data

How the results depend on the processing

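The log2 fold changes of the 6 members were above 0 in every fit run, from 0.217 to 2.07 with all samples and 0.595 to 2.13 with 1 left out. The lowest came with at least 10 counts in every sample, where 134 genes were left and 5 members ran from 0.217 to 0.777; the cause was not tested. The number of members called was 0 in all fits but the one without anti-CD24 replicate 1, so that leaving out 1 sample gave 0 to 4. The number of genes called, 1 with all samples, was 0 with DESeq2, 2 without a filter, 0 with at least 10 counts in every sample and 0 with the replicate block, and 0 to 47 with 1 sample left out. It was 0 without isotype replicate 1 or anti-CD24 replicate 2, 3 without anti-CD24 replicate 3 and 47 without anti-CD24 replicate 1. Other miRNA-annotated genes called were 0, and 0 to 1 with 1 sample left out, the 1 being Mir6236 without anti-CD24 replicate 3. With the replicate block, which pairs the libraries of a run, the members' log2 fold changes were 1.16 to 1.48 at an adjusted p of 0.99 in edgeR's quasi-likelihood test, and no member's call changed.

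The difference in the family's share of all gene counts, 0.996 points, was 0.300 with the family at its highest member and 0.170 at the mean of its members, as fewer counts enter the sum. Its share of non-rRNA counts differed by 6.22 points, and by 1.36 at the mean of members. With 1 sample left out, the difference was 0.758 to 1.25 points of all gene counts, 2.79 to 8.05 of non-rRNA counts, lowest without anti-CD24 replicate 3, and −10.9 to 1.77 of miRNA-annotated counts, above 0 only without anti-CD24 replicate 1. Within the family, the differences with 1 sample left out were −0.0217 to 0.496 points for Gm23935, −1.06 to 0.780 for Gm24270, −3.67 to −0.370 for Gm24187, −0.168 to 0.983 for Gm25911, −1.87 to 4.16 for Gm24245 and −0.0164 to 0.0278 for Gm23388, so that 5 of 6 changed sign. The counts of members that did not overlap, or were higher in every run, without anti-CD24 replicate 1 or run 1 were alternatives chosen after seeing the data, as were the change relative to the median of all genes and the ratios of mean CPM without that sample.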

Other observations

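The miRNA-annotated genes around the family varied in their own ways over the same libraries. Mir6236 had 383, 115 and 545 counts in isotype replicates 1, 2 and 3 and 3550, 1746 and 777 in anti-CD24 replicates 1, 2 and 3, so that its highest sample was the one with the haemoglobin counts and the family's was not. Per 1000 counts of Mir6236, the family had 8796 to 16226 counts in the isotype samples and 2435 to 24586 in the anti-CD24 samples. Gm27509, next below Gm23388 in total, had 14 of its 15 counts in isotype replicate 3.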
